A study of Homo sapiens with 2 samples.

Results

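Chromosome 19 carries the main clusters of human zinc finger genes, and 125 of them were compared between SUDHL6 and HT, 2 untreated cell lines from diffuse large B cell lymphoma. The members are the genes whose platform symbol is ZNF followed by digits, which lie on chromosome 19 in the RefSeq gene table and have a probe set naming no other gene. They are 125 of 14232 genes with a value, and 125 of the 241 genes of this name in the table's chromosome 19. The other 116 had no probe set of their own, and 93 of these stand on probe sets that name several genes.

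Most ZNF proteins of chromosome 19 join a row of C2H2 zinc fingers, which contact DNA, to an N-terminal KRAB domain. The KRAB domain binds the scaffold protein TRIM28, which brings in the methyltransferase SETDB1, HP1 proteins and deacetylases to silence the bound DNA. Many of these proteins bind transposable elements, and the genes spread by tandem duplication, so neighbours resemble each other. Probes of such genes can read a close copy as well, and every value below carries that uncertainty.

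Total RNA of each line was hybridised to 1 Affymetrix exon array, which reads a gene through probes along its exons and summarises them as a probe set. The cells had grown in RPMI with fetal bovine serum and penicillin/streptomycin and were measured at baseline, without treatment, as part of work on an inhibitor of Polycomb repressive complex 2. Each array measured the RNA of a whole culture, so fewer cells with an RNA and less RNA per cell cannot be told apart. Values are log2 expression after RMA, and every difference is SUDHL6 minus HT. With 1 array per line there is no spread between cultures, no test was made, and every difference is one between these 2 arrays.

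To be counted as different, a gene needed a difference of at least 1 either way, which is a 2-fold change. Its higher value also had to reach the dim level set for that line. The dim level is the 95th percentile of 225 olfactory receptor genes, 3.81 in SUDHL6 and 4.11 in HT. The central 95% of the receptor genes' own differences ran from -1.03 to 1.26, and 8 of the 225 were at -1 or below. A difference near 1 therefore lies within the range seen in dim genes. A lower value under the dim level was replaced by that level for the fold, which then reads "at least". All 9 measured markers of B cells among the 10 listed reached the dim level in both lines, against 2 of 7 T cell markers. In the fibroblast list LUM (2.38 in SUDHL6, 6.22 in HT) and DCN (2.09, 5.05) were higher in HT. COL1A1 (4.47, 4.44) and COL1A2 (4.55, 4.61) were close, and PDGFRB was below the dim level. The part of these markers in the results below was not tested.

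The chromosome 19 ZNF genes were shifted toward HT. Of the 125, 97 reached the dim level with their higher value, and 17 of these were higher in HT while 2 were higher in SUDHL6. Together the 19 were 19.6% of the 97, against 12.3% of all genes. By direction that is 17.5% against 6.99% of all 9405 genes that reached it for HT, and 2.06% against 5.3% for SUDHL6. The other 78 differed by less than 1, and 50 of those 78 had the higher value in HT, 27 in SUDHL6 and 1 was identical. The median difference was -0.20 over 98 members above the dim level in at least 1 line, against -0.05 over all 9554 such genes. It stayed negative, between -0.15 and -0.14, after quantile normalization, loess and median centring.

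**Figure D1:**
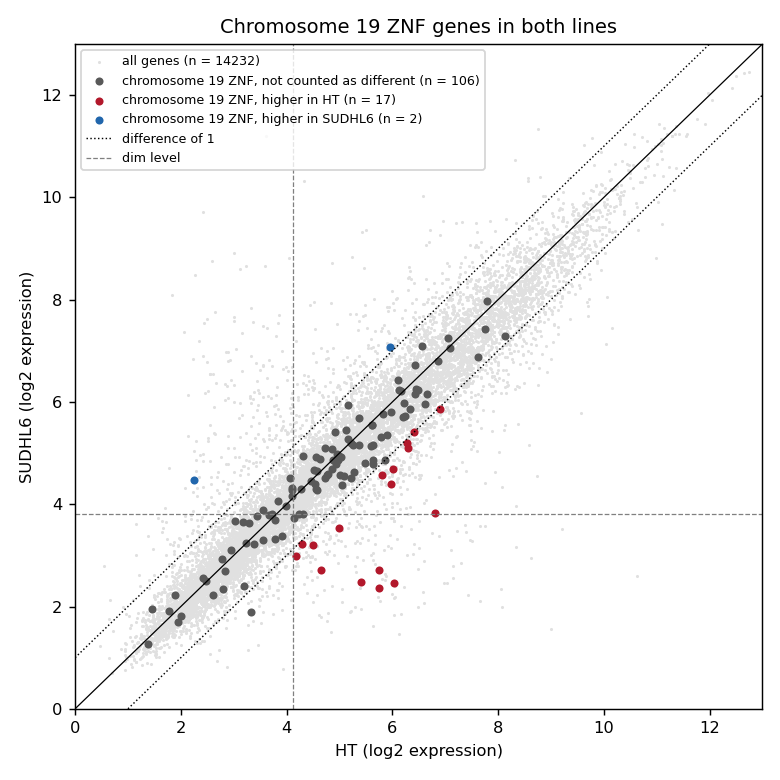
Log2 expression in HT (horizontal axis) and SUDHL6 (vertical axis), with 1 point per gene. Pale points are all 14232 genes and larger points the 125 chromosome 19 ZNF genes. The 17 genes in red lie below the lower dotted line, where HT is higher by at least 1, and the 2 in blue lie above the upper one. Dashed lines are the dim levels.

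Other genes of chromosome 19 and ZNF genes elsewhere gave the reference for this lean. Of 632 other chromosome 19 genes that reached the dim level, 9 (1.42%) were higher in HT and 9 in SUDHL6, with a median difference of -0.04. The 632 include 9 zinc finger genes picked by names of other forms, among them ZFP82, ZFP36, ZBTB32 and ZNF321P. Their kind of zinc finger was not checked, so they need not resemble the members. Of these 9, 0 were higher in HT and 0 in SUDHL6, with a median of -0.11. Over all genes 12.3% were counted either way, so 0 among 9 is no trait of this group. Of 121 ZNF genes on other chromosomes, 5 (4.13%) were higher in HT and 10 (8.26%) in SUDHL6, with a median of 0.04. These included ZNF680, ZNF273 and ZNF92 on chromosome 7, all higher in SUDHL6 by 1.02 to 1.30. Among 18 other genes lying inside the zinc finger clusters of chromosome 19, 0 were higher in HT and 1, the insulin receptor gene INSR, was higher in SUDHL6 (4.95 against 3.49). Shares were set side by side and not tested.

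The share higher in HT stood above that of all genes in each range of level but the top one. Where the higher value lay from 4 to 5, it was 14.7% of 34 members against 2.74% of all genes. From 5 to 6 it was 15.2% of 33 against 5.64%, and from 6 to 7 it was 33.3% of 21 against 10.0%. The range from 6 to 7 holds ZNF426, ZNF461 and ZNF566, which were no longer counted after loess. At 7 and above, 0 of 8 members were higher in HT, against 11.6% of all genes.

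**Figure D2:**
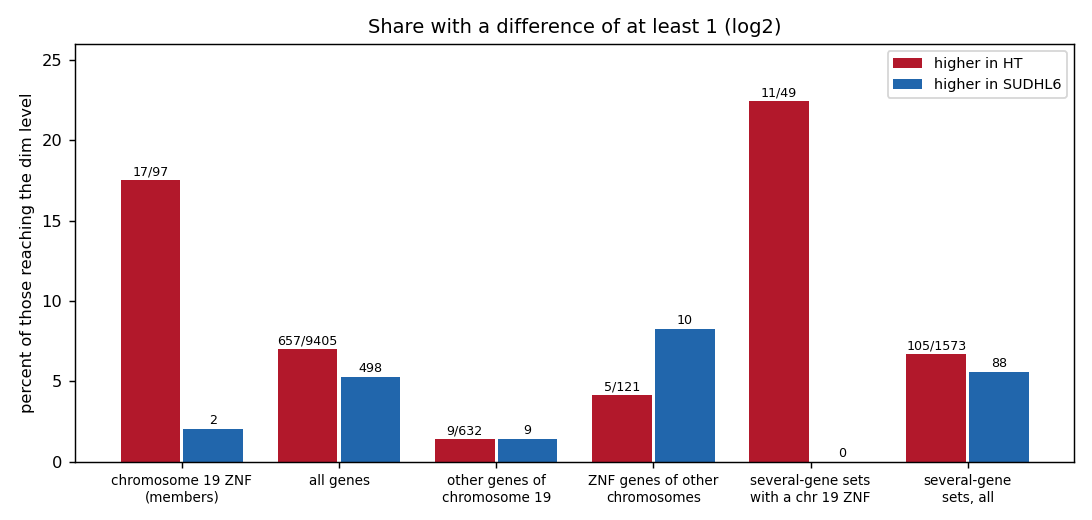
Percent of genes or probe sets with a difference of at least 1 among those reaching the dim level, in red for higher in HT and in blue for higher in SUDHL6. Numbers above the bars are counts (and, for HT, the total). Chromosome 19 ZNF genes stand at 17/97 for HT, and probe sets of several genes that name a chromosome 19 ZNF gene at 11/49. The 11 include 4 sets that all name ZNF432.

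The 5 members with the largest differences were all higher in HT. ZNF256, first described in bone marrow, had values of 2.47 in SUDHL6 and 6.03 in HT, which is at least 4.64-fold higher in HT. ZNF175, described in macrophages infected with HIV, stood at 2.36 and 5.75, at least 3.84-fold higher. In both genes the SUDHL6 value lay well under the dim level and the HT value well above it. ZNF613 (2.72 in SUDHL6, 5.75 in HT) was at least 3.82-fold higher. ZNF880 stood at 3.82 and 6.81, 7.93-fold higher, with SUDHL6 just above its dim level. ZNF57 stood at 2.48 and 5.41, at least 3.02-fold higher. These 5 were the members with a difference of at least 2 toward HT, or 5.16% of the 97, against 1.64% of all genes.

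Promoter sequences are shown for ZNF256 and ZNF175, the members with the largest differences. Each run is the 250 bases before the gene's start in RefSeq (GRCh38.p14), 5′ to 3′ on the gene's strand, with CpG dinucleotides in capitals. That of ZNF256 is chr19:57947707-57947956 on the minus strand and that of ZNF175 is chr19:51571033-51571282 on the plus strand.
ZNF256: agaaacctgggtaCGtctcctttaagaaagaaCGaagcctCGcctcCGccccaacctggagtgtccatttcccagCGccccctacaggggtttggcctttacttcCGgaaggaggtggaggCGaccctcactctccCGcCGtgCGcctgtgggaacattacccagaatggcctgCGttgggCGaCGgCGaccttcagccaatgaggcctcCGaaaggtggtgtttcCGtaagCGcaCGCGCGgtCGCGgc
ZNF175: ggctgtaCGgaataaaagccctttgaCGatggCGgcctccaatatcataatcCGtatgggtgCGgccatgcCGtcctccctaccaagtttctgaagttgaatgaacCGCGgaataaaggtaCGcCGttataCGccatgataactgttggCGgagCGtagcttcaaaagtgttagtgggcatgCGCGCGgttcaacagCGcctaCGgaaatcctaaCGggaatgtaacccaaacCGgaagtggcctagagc
The ZNF256 stretch holds 22 CpG dinucleotides at 62.0% GC and the ZNF175 stretch 20 at 52.4%. No methylation was measured here.

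CpG counts overlapped between members higher in HT and the rest. RefSeq promoters of 300 bases, 250 before and 50 after the start, were found for 109 of the 125 members. The 17 members higher in HT had a median of 20 CpG dinucleotides (14 to 29), with 26 in ZNF256 and 22 in ZNF175. The 90 not counted as different had a median of 22 (6 to 49), and 11385 genes of the array a median of 23. The letters CCGGAAG, the core of many ETS-family sites, stood on either strand in 35 of the 109 member promoters (32.1%), against 14.5% of the 11385 genes of the array and 10.7% of all 27305 promoters of that length. Among the 17 they stood in 7 (41.2%), both printed stretches included, and among the 90 in 27 (30.0%). TATAAA stood in 1 of 109 (0.92%), against 8.60% of the array's genes and 11.9% of all promoters. Both motifs were searched on both strands, the first holds a CpG of its own, and a match is a description only.

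The next members were higher in HT by smaller amounts. ZNF528 (2.71 in SUDHL6, 4.65 in HT) exceeded its SUDHL6 level at least 1.79-fold in HT. ZNF577 stood at 4.39 and 5.97, 3.001-fold higher. ZNF568, whose mouse counterpart represses a placental Igf2 transcript, stood at 3.53 and 4.99, at least 2.26-fold higher. ZNF577 was above the dim level in both lines, whereas ZNF528 and ZNF568 were above it in HT only. ZNF569 stood at 4.69 and 6.02 (2.51-fold), and ZNF570, its neighbour, at 5.10 and 6.30 (2.31-fold). ZNF793 stood at 3.20 and 4.50, at least 1.61-fold higher, and ZNF234 at 4.58 and 5.81, 2.36-fold higher.

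The remaining 5 of the 17 lay close to the threshold or to the dim level. ZNF426 (5.85 in SUDHL6, 6.91 in HT) had a difference of -1.05 that became -0.93 after quantile normalization or loess. ZNF566 (-1.09) and ZNF461 (-1.0003) were above the dim level in both lines. ZNF461 was no longer counted after quantile normalization, loess or median centring, nor ZNF566 after loess. ZNF304 stood at 2.997 and 4.17, and ZNF132, reported methylated in prostate cancer, at 3.22 and 4.29. In both the HT value was barely above the dim level of 4.11. ZNF304, ZNF132, ZNF566 and ZNF461 were named after their values were seen. ZNF561 (-0.9975) lay just outside the threshold.

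SUDHL6 was higher for 2 members. ZNF583 stood at 4.47 in SUDHL6 and 2.26 in HT, which makes it at least 1.28-fold higher. It was the only member with a difference of at least 2 toward SUDHL6 (1.03% of the 97, against 1.78% of all genes). A probe set that names ZNF470 and ZNF583 stood at 3.09 in SUDHL6 and 3.36 in HT, under the dim level in both. ZNF681 stood at 7.08 and 5.96, 2.18-fold higher, with both values above the dim level. SUDHL6 was under its dim level in 9 of the 17 genes higher in HT, and in the other 8 both lines were above theirs, with folds from 2.0004 to 7.93. Lying under the dim level is no proof of a silent gene.

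**Figure D3:**
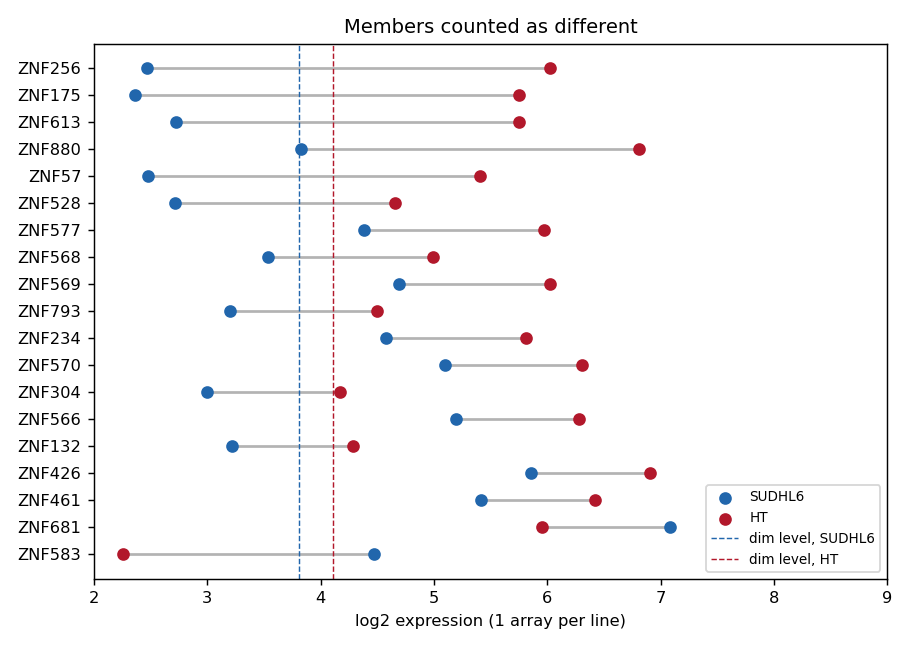
Log2 expression of the 19 members counted as different, with SUDHL6 in blue, HT in red and 1 array per line. Dashed lines are the dim levels of 3.81 (SUDHL6) and 4.11 (HT). HT lies to the right for 17 genes, with the widest gap at ZNF256, and SUDHL6 for ZNF681 and ZNF583.

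Gene order was used next, because the genes lie in tandem clusters. A cluster is a run of ZNF genes, measured or not, with at most 5 other protein-coding genes between consecutive ones. The 241 genes fell into 24 clusters, of which 9 had 5 or more measured members (102 members in all). The 17 genes higher in HT lay in 6 of these 9 clusters, apart from ZNF175, which stood alone by the rule.

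**Figure D4:**
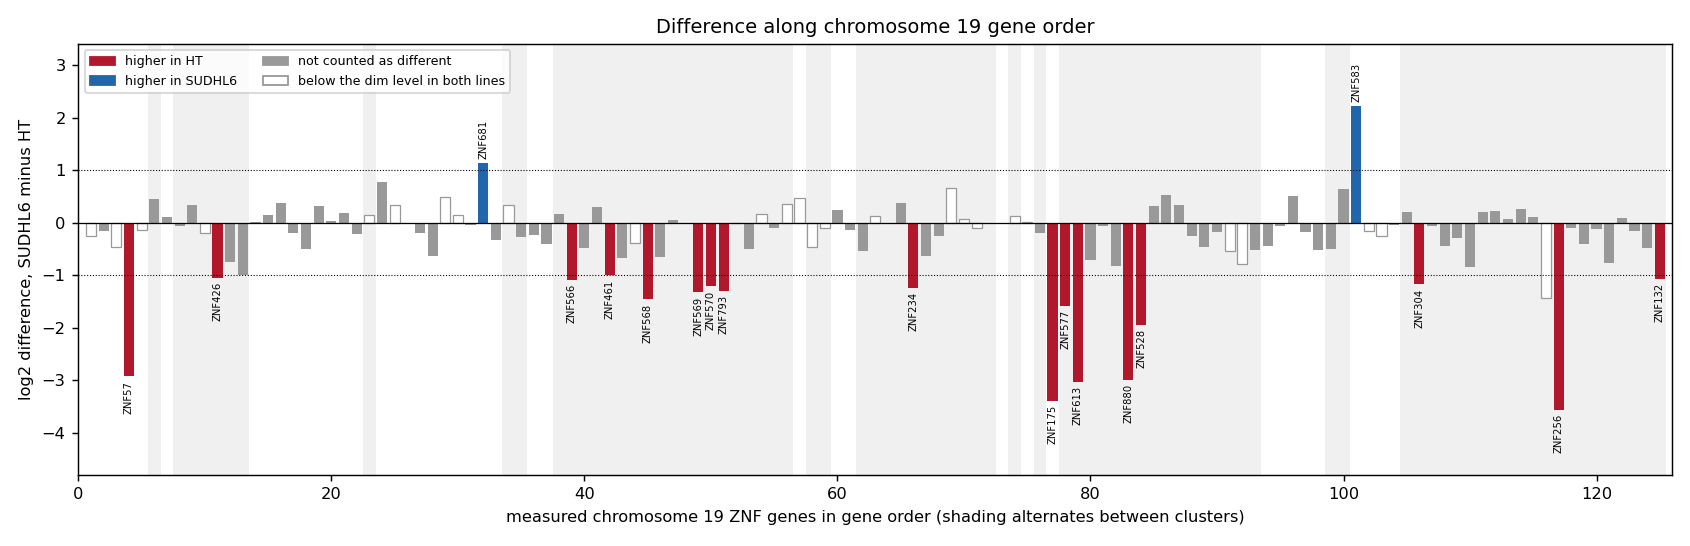
Log2 difference (SUDHL6 minus HT) of the 125 members in chromosome 19 gene order, with clusters set off by alternating shading. Red bars are the 17 genes higher in HT, blue bars the 2 higher in SUDHL6, grey bars genes not counted and open bars genes that reached the dim level in neither line. Red bars gather from ZNF566 to ZNF793 and from ZNF175 to ZNF528.

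The cluster from ZNF565 to ZNF573 held 6 of the 17, more than any other, among 15 of its members that reached the dim level. Over all members 17.5% of 97 were higher in HT, and over all genes 6.99%. Clusters differ in size, so the counts do not rank them. Of the cluster's 19 measured members, 15 were above the dim level in a line, with 11 higher in HT and 3 higher in SUDHL6 by any amount and a median difference of -0.66. ZNF566, ZNF461, ZNF568, ZNF569, ZNF570 and ZNF793 were counted as higher in HT. Of these, ZNF461 and ZNF566 were no longer counted after loess, and ZNF568 and ZNF793 were under the dim level in SUDHL6. The genes between them were mixed. ZNF567 (-0.67), ZNF420 (-0.66) and ZNF529 (-0.47) leaned the same way, while ZNF383 (0.05) and ZNF382 (0.29) did not. ZNF382, a KRAB repressor described as a tumour suppressor, stood at 6.72 in SUDHL6 and 6.42 in HT. ZNF875 had the same value, 4.45, on both arrays.

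The cluster from ZNF577 to ZNF331 held 4 of the 17, all toward one end. Of its 16 measured members, 14 were above the dim level in a line, 11 of them with a negative difference, and the median was -0.50. ZNF577, ZNF613, ZNF880 and ZNF528 lay in the part that comes first in gene order. The sign changed after ZNF528: ZNF701 (0.32), ZNF83 (0.53) and ZNF600 (0.33) had the higher value in SUDHL6. ZNF83 stood at 7.09 and 6.57. ZNF331, an imprinted gene at the other end of the cluster, stood at 5.36 in SUDHL6 and 5.89 in HT.

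ZNF175 lies shortly before this cluster, and from ZNF175 to ZNF528 every ZNF gene with a value of its own was higher in HT. This stretch, chosen after its values were seen, holds 24 genes, 16 of them ZNF genes and 8 of those measured alone. All 8 had a negative difference, 5 were counted as higher in HT, and the median was -1.76. The 3 not counted were ZNF614 (4.51 in SUDHL6 and 5.22 in HT), ZNF616 (4.86 and 4.93) and ZNF480 (7.29 and 8.13). The difference was thus large for some neighbours and close to 0 for ZNF616.

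Probe sets shared between genes of the stretch gave further values. The set naming ZNF649, ZNF615 and ZNF432 had 1.38 in SUDHL6 against 5.66 in HT and was at least 3.60-fold above SUDHL6 there. The set of ZNF350 and ZNF432 stood at 1.85 and 5.60, at least 3.46-fold higher, ZNF350 being a repressor that binds BRCA1. The set of ZNF615 and ZNF432 stood at 2.02 and 4.71, and that of ZNF841, ZNF432 and ZNF836 at 2.52 and 5.39. All 4 name ZNF432, so they are not independent of each other. The set of ZNF610 and ZNF480 did not reach the dim level in either line. Genes of other kinds in the stretch gave no difference of 1: SPACA6 stood at 4.05 and 3.90, PPP2R1A, a phosphatase scaffold, at 5.55 and 6.25, and the formyl peptide receptor genes FPR1, FPR2 and FPR3 reached it in neither line.

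**Figure D5:**
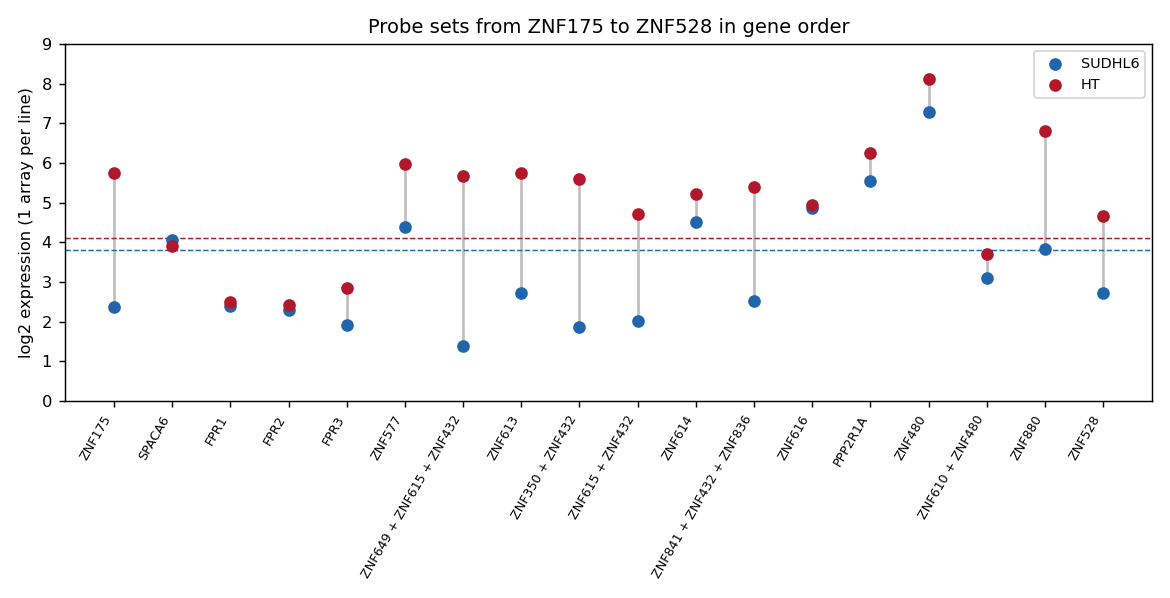
Log2 expression of the probe sets from ZNF175 to ZNF528 in gene order, SUDHL6 in blue and HT in red, with 1 array per line. Names joined by + share a probe set, placed at the first of its genes without a set of its own. Dashed lines are the dim levels. HT is the higher point for every ZNF probe set, by 0.07 (ZNF616) to 4.28 (the set of ZNF649, ZNF615 and ZNF432).

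The 7 other clusters with 5 or more measured members had fewer genes counted as different. In the cluster from ZNF264 to ZNF446, 20 of 21 members were above the dim level in a line, 3 were higher in HT (ZNF256, ZNF304 and ZNF132), and the median was -0.13. There ZNF671 stood at 4.89 in SUDHL6 and 4.64 in HT. ZNF274, which carries SETDB1 to the ends of zinc finger genes themselves, stood at 5.15 and 5.26. ZNF256 differed far more than the nearest members above the dim level, ZNF586 (0.10) and ZNF135 (-0.10). ZNF418, between ZNF586 and ZNF256, had a difference of -1.44 but reached the dim level in neither line.

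The cluster from ZNF283 to ZNF180 had ZNF234 higher in HT and a median of -0.25 over 7 members above the dim level. Its member ZNF224, a KRAB repressor that interacts with WT1, stood at 5.10 in SUDHL6 and 4.73 in HT. The cluster from ZNF317 to ZNF846 had ZNF426 higher in HT, ZNF266 at 6.44 and 6.11, and a median of -0.75 over 5 members. From ZNF554 to ZNF77, ZNF57 and ZNF555 (4.69 and 4.86) were the 2 of 5 members above the dim level in a line. In the cluster from ZNF628 to ZNF580 the median was -0.18, with ZNF580 at 5.72 and 6.23 and ZNF784 at 5.42 and 4.91.

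In 2 further clusters the medians were near 0. From ZNF653 to ZNF791, 0 of 9 members were counted as different and the median was 0.03, with ZNF136 at 6.16 and 6.66 and ZNF441 at 4.93 and 4.56. Over all genes 12.3% were counted either way, so 0 among 9 is no trait of this cluster. From ZNF101 to ZNF254, the median was -0.05 over 7 members. Its sign was not stable, at 0.09 after quantile normalization, -0.25 with dim values set to the dim level and -0.33 with probe sets of several genes also used. Setting dim values so gives each gene dim on both arrays -0.30, the distance between the dim levels. The -0.25 is therefore no measure of a lean. ZNF43, described in lymphoid cells, stood at 5.97 in SUDHL6 and 6.61 in HT there, and ZNF675, which binds TRAF6 and inhibits its signalling, at 6.81 and 6.86. ZNF681 of the same cluster was the member higher in SUDHL6. ZNF91 and ZNF93, known for binding SVA and LINE elements, had no probe set of their own. The set of ZNF91 and ZNF725P stood at 3.92 and 3.65, and that of ZNF93, ZNF90, ZNF626 and ZNF56P at 8.12 and 8.35.

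Neighbouring members tended to differ in the same direction. Genes above the dim level in neither line were left out before pairs were formed. Of 79 pairs of consecutive remaining members of a cluster, 51 (64.6%) had the same sign. The share was 53.3% of 9248 pairs over all autosomes and 46.7% of 645 pairs of other chromosome 19 genes. Those pairs had no cluster limit and can lie further apart. The Pearson correlation of the paired differences was 0.20 over the 79 pairs, 0.14 over all autosomal pairs and -0.0083 over those of other chromosome 19 genes. All points share the same 2 arrays, and since most members leaned toward HT, a same sign is common among them without any effect of order. Without the 19 members counted as different, 36 of 61 pairs (59.0%) had the same sign and the correlation was 0.0071.

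Probe sets naming several genes, which the members' values do not use, leaned the same way. Of 72 that name a ZNF gene of chromosome 19, 49 reached the dim level, and 11 (22.4%) were higher in HT and 0 in SUDHL6. Over all 1573 sets of several genes that reached it, the shares were 6.68% and 5.59%. Of the 55 that name no member, 41 reached the dim level and 9 were higher in HT. The 4 sets described above that name ZNF432 are among both the 11 and the 9. These counts are therefore not of independent readings. Besides those described above, the set of ZNF558 and ZNF557 had 2.57 in SUDHL6 against 6.34 in HT, at least 5.75-fold more. Another probe set of the same 2 genes stood at 4.72 and 5.06, above the dim level in both lines and not counted as different. Both were named after their values were seen.

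Genes through which KRAB zinc finger proteins silence DNA were mostly alike in the lines, as were most genes. TRIM28 stood at 5.03 in SUDHL6 and 5.45 in HT, and SETDB1 at 6.45 and 6.01. Of 26 listed genes, 23 had a value, 22 reached the dim level, 2 were higher in HT and 0 in SUDHL6, and the median difference was -0.02. Over all genes that reached it, 6.99% were higher in HT and 5.3% in SUDHL6. So few counted among 22 genes is therefore no trait of this list. The 2 were SMARCAD1, a chromatin remodeller that binds TRIM28, at 7.12 and 8.34, and MORC2, an ATPase that works with the HUSH complex, at 5.40 and 6.61.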

How the data were processed

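RNA of 2 cell lines, SUDHL6 and HT, was measured on 1 exon array each. The authors deposited log2 expression values after RMA with the Affymetrix Expression Console, per the submitters' processing notes; no versions, settings or build were given in the sources used here. RMA makes array distributions alike and compresses differences between dim probe sets. The table held 22011 probe sets. The platform annotation named 1 gene for 14432 and several for 2408. Gene numbers were matched to RefSeq (GRCh38.p14) for 14404 of the 14432, which gave symbols, chromosome and gene order. Each gene took its probe set with the highest mean, which left 14232 genes. Of the members, ZNF540 alone had more than 1.

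Arrays were compared by the log2 difference, with no test and no interval, since the number of arrays limits the precision. Python 3.11.15, pandas 2.3.3, numpy 2.4.6 and statsmodels 0.14.6 (loess span 0.3) were used. The procedure was tested on simulated data, with noise smaller than the spread of the olfactory receptor genes' differences. That run gives no rate of false counts for these arrays. Named genes were up to 12 per direction among those counted as different, the largest difference each way in clusters with 5 or more measured members, and 9 genes chosen for known roles. Members, lists and thresholds were chosen with earlier results of these data known. Of the other marker lists, reaching the dim level in a line were 4 of 4 germinal centre, 3 of 4 NK cell, 2 of 6 myeloid, 2 of 5 epithelial, 4 of 5 fibroblast and 2 of 3 erythroid and platelet genes. Alternatives were scaling, probe set choice, the dim level, the threshold, the symbols used and the cluster rule.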

Additional observations from a re-analysis of the deposited data

How the results depend on the processing

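The count of members higher in HT was 17, and 13 to 18 with another scaling, probe set choice, symbol source, no dim level or the dim level at the 99th percentile, while the count higher in SUDHL6 stayed at 2. Probe set choice and symbol source left both counts unchanged, and of the members ZNF540 alone had more than 1 probe set. With both arrays required to reach the dim level the counts were 8 for HT (10.1%, against 5.83% of all genes) and 1 for SUDHL6 (1.27% against 3.33%), since 9 of the 17 had a SUDHL6 value below it. A threshold of 0.5 gave 33 (34.0% against 19.5%) and 6 (6.19% against 13.1%), and a threshold of 2 gave 5 and 1. With probe sets of several genes also used, 31 were higher in HT and 2 in SUDHL6, 15 of the 17 among them, over 148 members that reached the dim level (20.9% for HT, against 7.42% of all genes). There a shared set lent its value to every gene it names. The same reading can thus count for several members, and the 31 are not separate readings. The median difference of members lay between -0.33 and -0.14 under all 9 alternatives run for it. Probe set choice and symbol source left it unchanged. With dim values set to the dim level it was -0.30. Every member dim on both arrays takes that same value there, so this alternative does not measure a lean.

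Of the cluster medians, 95 of 99 alternative values moved by less than 0.298, which is the interquartile range of all genes above the dim level divided by 2. The 95 include those for probe set choice and symbol source, which left every cluster median unchanged. Probe set choice could not move them, since only ZNF540, dim on both arrays, had more than 1 set. The width of 0.298 also exceeds several of the medians themselves, so a change of sign can fall within it. The cluster from ZNF577 to ZNF331 went to -0.91 with probe sets of several genes, where a shared reading can count for each gene it names. That from ZNF554 to ZNF77, whose main median of -1.55 rests on 2 genes, went to -0.26 with dim members included. With dim values set to the dim level it went to -0.30. That is only the distance between the dim levels of 3.81 in SUDHL6 and 4.11 in HT, and shows no lean. The cluster from ZNF317 to ZNF846 went to -0.40 with a gap of up to 10 genes. No paired analysis was possible because each line has 1 array. Leaving out a replicate was likewise not possible.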
